A study of Drosophila melanogaster with 12 samples.

Results

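The 5 genes described here are scalloped (sd), nerfin-1, yorkie (yki), Tgi and vestigial (vg). They were taken by FlyBase symbol, and all 5 matched a gene identifier among the 13922 protein-coding genes on the major chromosome arms of Drosophila melanogaster. They encode the DNA-binding protein Sd, its partner Nerfin-1 and other cofactors of Sd. The study asked how Sd and Nerfin-1 work together in keeping neurons in their fate.

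Sd is the fly member of the TEAD family, whose proteins bind DNA but need a partner to switch genes on or off. Yki, the effector of the Hippo pathway, is a coactivator that drives growth genes through Sd when the kinase Wts does not hold it in the cytoplasm. Tgi carries Tondu domains, competes with Yki for Sd and represses the same genes. Vg, also a Tondu-domain protein, forms the wing selector complex with Sd. Nerfin-1 is a zinc-finger protein related to the INSM proteins of mammals and is known for keeping newborn neurons from reverting to neuroblasts.

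Targeted DamID was done on whole central nervous systems of wandering larvae of the third instar. In this assay a bacterial adenine methylase (Dam), alone or fused to a protein, marks GATC sites near the protein. The groups were Dam alone (2 samples), Dam-Sd (2) and Dam-Nerfin-1 (2), each from a pUAST-LT3 transgene at attP2. All 3 groups carried GMR31H08-Gal4, UAS-GFP and tubGal80TS, so only cells of the driver expressed the transgene, and the labels do not say which cells these are. Eggs were laid at 25°C, animals were kept at 18°C for 4 days, and expression was released at 29°C for the last 24 hours. ATAC-seq (3 samples), which maps open chromatin, and RNA-seq (3 samples) were done on GFP-positive cells sorted from animals carrying the iA insertion of P[nerfin-1.GFP-NLS.SV-40], reared at 25°C. The sort selects cells by a nerfin-1 reporter, so the nerfin-1 RNA level is not independent of it. RNA from sorts of several days was pooled to make the samples (180 to 330 ng each).

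DamID and ATAC results were 1 peak list per group, without scores or values per sample, so positions and counts are given and no test was possible. RNA was given as read counts of 5135 listed genes in libraries S1, S2 and S3, with 43555895 to 57468071 listed counts each. RNA levels below are counts scaled to 1000000 listed counts (CPM). Of neuronal markers 7 of 7 were listed, with a summed level of 7228 to 7611 CPM. Of neuroblast markers 1 of 6 was listed (ase), of glial markers 1 of 6 (nrv2), of hemocyte markers 0 of 4 and of muscle markers 0 of 4.

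All 5 genes were named in both DamID lists. Each list pairs its peaks with gene identifiers, and the members accounted for 6 Sd peaks and 5 Nerfin-1 peaks. Of all protein-coding genes, 28.0% were named in the Sd list, 25.3% in the Nerfin-1 list and 20.9% in both. The share depended on gene length. It was 43.9% in the decile of longest genes, which holds sd, Tgi and vg, 20.8% in the decile of nerfin-1 and 16.3% in that of yki. Since the 5 genes were chosen with these results known, their count is a description and not evidence that Sd cofactors stand apart. By a distance of 1 kb from the gene, all 5 also had both kinds of peak, against 27.7% of protein-coding genes.

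**Figure D1:**
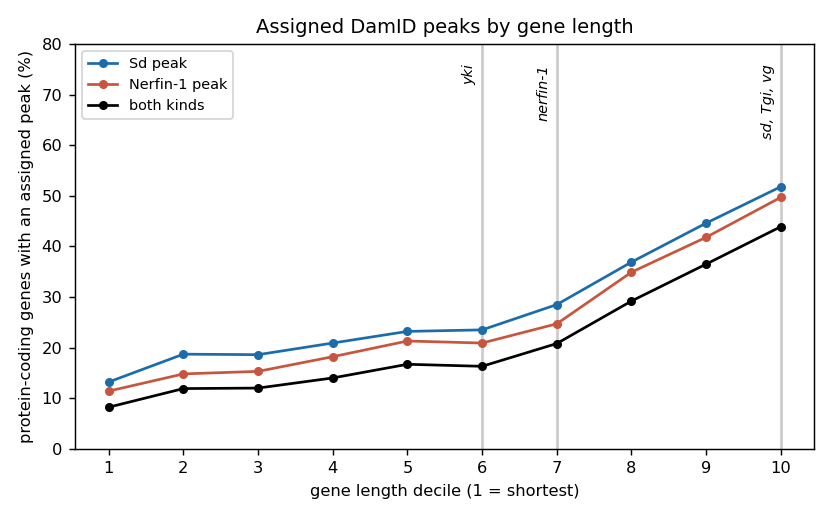
Share of protein-coding genes (%) named in the Sd list, the Nerfin-1 list or both, by decile of gene length, with the deciles of the 5 genes marked by grey lines. The share named in both rises from 8.22% of the shortest genes to 43.9% of the longest.

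The gene sd itself (FBgn0003345, chromosome X, 15804370 to 15827682, dm6, 23313 bp) carried peaks of both proteins in its interior. Distances are given from the end of each gene with the lower coordinate, since the gene table used holds no strand or exons. Both lists had an identical peak of 1338 bp from 2.76 to 4.09 kb, which they name for lncRNA:CR44384, a non-coding gene inside sd. Both also had a peak starting at 7.22 kb, which ended at 10.6 kb in the Nerfin-1 list (3380 bp) and at 12040 bp in the Sd list (4821 bp). The latter was longer than 96.0% of all Sd peaks. Another Sd peak, of 825 bp at 1.81 to 2.63 kb, had no Nerfin-1 counterpart.

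Of the sequence under either kind of peak at sd, 67.6% lay under both, 2266 bp lay under Sd peaks alone and 0 bp under Nerfin-1 peaks alone. Over the whole lists 50.4% of covered bases lay under both. Open chromatin at sd had a different layout. Of 10 ATAC peaks within the gene or 1 kb of it, 2 lay under the shared DamID stretch and 8 touched neither kind of peak. Of all ATAC peaks 8.15% touched both kinds, though this is not a matched background. The 8 at sd included the longest, of 1572 bp across the lower end of the gene, and 7 between 12.4 and 21.2 kb. Conversely, the peaks at 1.81 to 2.63 kb and at 2.76 to 4.09 kb overlapped no ATAC peak, whereas 76.8% of all Sd peaks and 74.7% of all Nerfin-1 peaks did.

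The Dam-Sd transgene carries Sd coding sequence and the Dam-Nerfin-1 transgene that of Nerfin-1, so a peak in the protein's own gene may hold reads from the transgene. The share of such reads was not tested. The shared peaks at sd were also in the Nerfin-1 list, and those at nerfin-1 were also in the Sd list. The 825 bp peak and the stretch from 10.6 kb to 12040 bp of sd were in the Sd list alone. Presence in both lists or in the Sd list alone does not give the share of transgene reads in a peak. Without exons, the peaks could not be placed against the coding sequence of the transgenes.

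At nerfin-1 (FBgn0028999, chromosome 3L, 909112 to 912319, 3208 bp) both proteins covered almost the entire gene. An identical peak of 2282 bp in both lists ran from 1452 bp outside the lower end to 830 bp inside. After a gap of 124 bp, a second peak began at 954 bp in both lists and ran past the upper end to 4.44 kb in the Nerfin-1 list (3484 bp) and 7.05 kb in the Sd list (6101 bp). The lists name this second peak for Glut1, a sugar transporter gene 1754 bp away, and not for nerfin-1. Together the peaks of either list covered 3084 of the 3208 bp of the gene.

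Within the gene and 1 kb on either side, 97.6% of bases lay under both kinds of peak. This was matched or exceeded by 8 of the 13922 protein-coding genes, nerfin-1 included, or 0.0575%. The other 7 were CG14050, CG9921, CG43814, Tango8, BaraC, gammaSnap1 and Mst85C. Of these only Mst85C (3587 bp) was longer than nerfin-1. Those listed as expressed were CG9921 at 26.9 ± 2.68 CPM, gammaSnap1 at 19.97 ± 0.695 CPM and Mst85C at 29.4 ± 0.701 CPM (SD, n = 3). These genes and this measure were chosen after the values at nerfin-1 were seen. All 3 ATAC peaks at nerfin-1 overlapped both kinds of DamID peak, which was so for 1.59% of the 2767 protein-coding genes with at least 3 ATAC peaks. nerfin-1 has the fewest peaks this set allows, and with more peaks such full overlap is harder to reach. The share among genes with exactly 3 was not computed, and the set was not limited to genes with both kinds of DamID peak. The ATAC peaks lay at -1.75 to -0.576 kb, which is outside the lower end, across that end, and beyond the upper end at 3.64 to 4.03 kb. No ATAC peak lay in the gene beyond its first 119 bp. The sorted cells carry a nerfin-1 reporter, and whether its DNA added reads to these ATAC peaks was not tested.

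**Figure D2:**
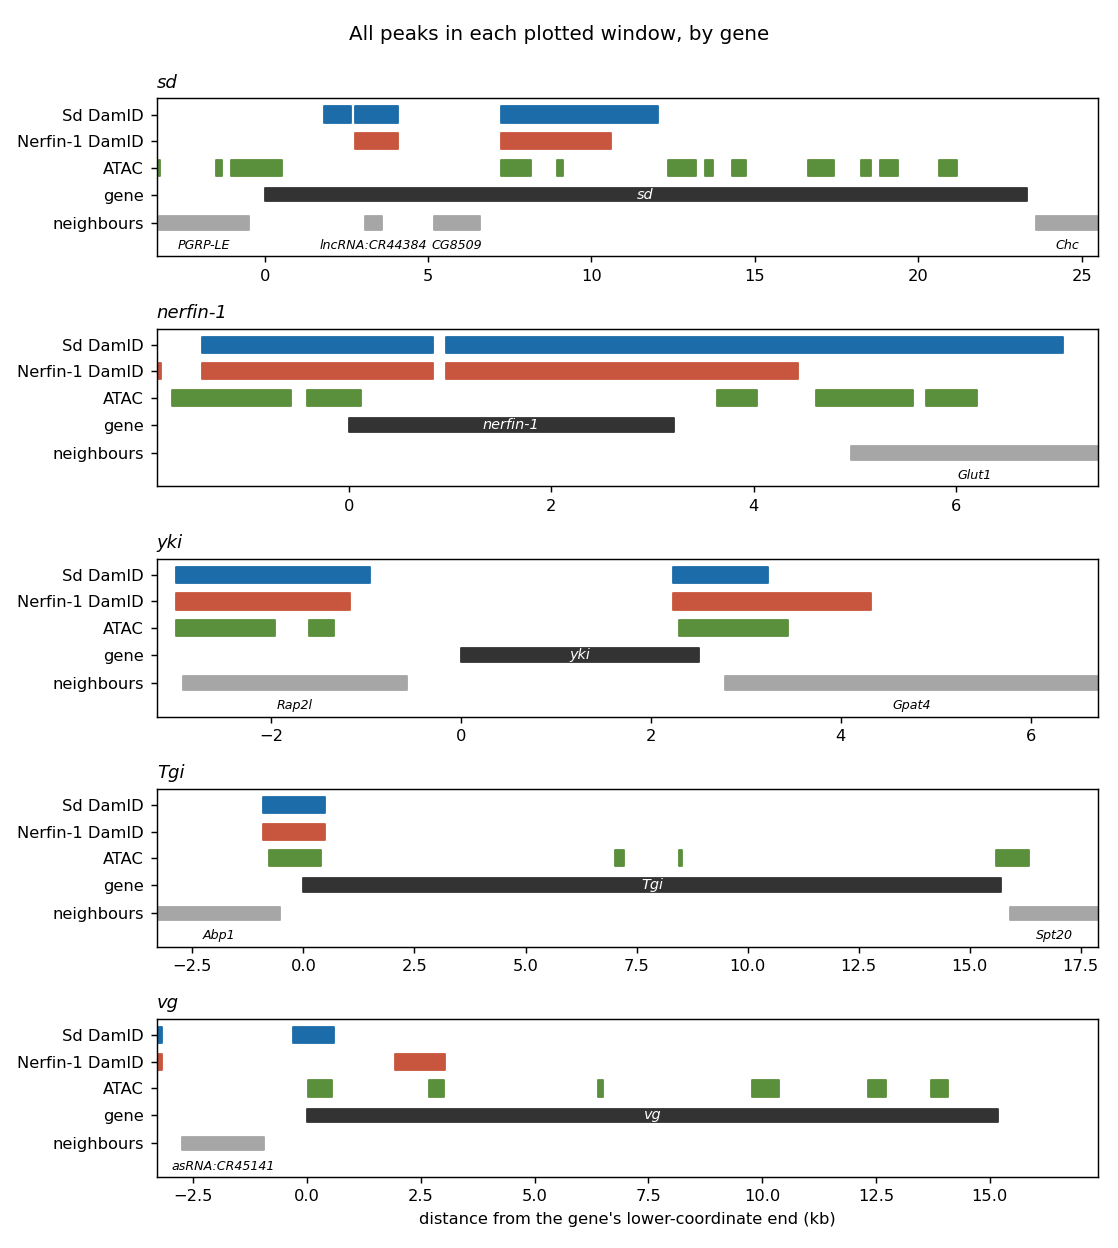
Peaks of the Sd list (blue), the Nerfin-1 list (red) and the ATAC list (green) along each gene (black) and its neighbours (grey), against the distance in kb from the lower-coordinate end of the gene. Peaks of both proteins coincide or overlap at sd, nerfin-1, yki and Tgi and lie apart at vg. At nerfin-1 they cover 3084 of 3208 bp.

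The coactivator gene yki (FBgn0034970, chromosome 2R, 24065975 to 24068485, 2511 bp) had its shared peak at the upper end. The peak began at 2.23 kb in both lists and measured 1003 bp in the Sd list and 2087 bp in the Nerfin-1 list. Both lists name it for yki and for Gpat4, a glycerolipid synthesis gene that begins 271 bp beyond. Only 283 bp of it lay inside yki. The single ATAC peak at yki, of 1147 bp, covered 93.2% of the Sd peak and 55.0% of the Nerfin-1 peak. Another Sd peak, of 2044 bp, lay 955 bp from the lower end of yki, and the Nerfin-1 peak that overlapped it lay 1168 bp away. The identifier the lists give for this pair matched no symbol. With peaks taken by a distance of 1 kb, yki thus had 2 Sd peaks and 1 Nerfin-1 peak.

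At the corepressor gene Tgi (FBgn0036373, chromosome 3L, 13486797 to 13502492, 15696 bp) both lists held the same single peak. It measured 1394 bp, from 906 bp outside the lower end to 488 bp inside, and both lists name it for Tgi and for Abp1, an actin-binding protein gene 516 bp away. An ATAC peak of 1158 bp lay wholly within it and covered 83.1% of it. The other 3 ATAC peaks of Tgi, at 7005 bp, 8449 bp and the upper end, touched no DamID peak.

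At vg (FBgn0003975, chromosome 2R, 12884201 to 12899385, 15185 bp) the proteins had separate peaks. The Sd peak, of 906 bp, crossed the lower end of the gene, from 314 bp outside to 592 bp inside. The Nerfin-1 peak, of 1093 bp, lay at 1.93 to 3.02 kb, and 1336 bp separated them. No base of vg or its 1 kb flanks was under both kinds of peak. Among the 2916 protein-coding genes named in both lists, 8.26% had Sd and Nerfin-1 peaks that did not overlap. Each of the vg peaks lay over an ATAC peak, of 531 bp for Sd and 338 bp for Nerfin-1. The remaining 4 ATAC peaks, between 6397 and 14085 bp, touched neither. Both vg peaks were shorter than the median of their list (1139.5 bp for Sd and 1146 bp for Nerfin-1).

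Over the 5 genes, Nerfin-1 peaks overlapped 4 of the 6 Sd peaks named for them. Sd peaks overlapped 4 of their 5 Nerfin-1 peaks. Across the lists these shares were 66.6% and 75.2%. In each list 2 of the members' peaks had identical boundaries in the other, and these were the ones at nerfin-1 and Tgi. Such a counterpart existed for 35.6% of all peaks in the Sd list and 39.6% in the Nerfin-1 list. At least 1 boundary was shared with an overlapping peak of the other list by 4 of the 6 Sd peaks, against 60.3% of the whole list. The same held for 4 of the 5 Nerfin-1 peaks, against 67.6%. DamID resolves no finer than the fragment between GATC sites, so identical boundaries show the same fragments and not the same binding site. Both fusion proteins have the same Dam-only samples as controls in the design, and the sources used here do not say how these entered the lists. Of 8 cases of a Sd peak over a member gene, the list names that gene in 6, and in 5 of 7 for Nerfin-1 peaks. For all protein-coding genes the shares were 74.7% and 75.1%.

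An ATAC peak lay within 1 kb of all 5 genes, as it did for 83.2% of protein-coding genes. The numbers were 10 at sd, 6 at vg, 4 at Tgi, 3 at nerfin-1 and 1 at yki. The median was 1 over all protein-coding genes, 9 in the decile of longest genes (from 14627 bp) and 3 in the decile below it. The number at sd was close to the median of its decile. Tgi and vg lie at the lower edge of that decile, and their numbers fell between the medians of the longest decile and the one below. Of the 24 ATAC peaks in all, 7 touched both kinds of DamID peak, 1 touched Sd alone, 1 Nerfin-1 alone and 15 neither. Across the genome 8.15% of ATAC peaks touched both. That share includes ATAC peaks far from any DamID peak, whereas all 5 genes have both kinds, so it is not a matched background. DamID and ATAC came from cells chosen in different ways and from different temperatures.

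RNA of sd, nerfin-1, yki and Tgi was listed as expressed in the sorted cells and that of vg was not. The table listed 35.5% of protein-coding genes. The sources used here do not give the rule for listing, and the lowest count in the table was 99, so an absent listing does not show that vg was silent. Of protein-coding genes not listed, 12.9% were named in both DamID lists, as vg was, against 36.3% of listed genes.

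nerfin-1 RNA was at 2486 CPM in library S1, at 1952 in S2 and at 1773 in S3, a mean of 2070 ± 371 CPM (SD, n = 3). S1 was above the others by 0.42 on the log2 scale, and S2 and S3 lay closer to each other than to S1. This signed difference was above that of 98.9% of listed genes. The coefficient of variation, which is the SD as a share of the mean, was 17.9% for nerfin-1, above that of 97.3% of listed genes and above their median of 5.93%. Without S1 it was 6.78% with total counts, and this value was not computed with other scalings. In a bulk sample, fewer cells of a type and less RNA per cell cannot be told apart.

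sd RNA was at 377 CPM in library S1, at 416 in S2 and at 385 in S3, a mean of 393 ± 20.6 CPM (SD, n = 3). Its highest value was in S2, and its spread of 5.25% was near the median gene's. The ratio of nerfin-1 to sd reads, which does not depend on the scaling of libraries, was 6.59 in S1, 4.69 in S2 and 4.61 in S3. S1 again lay apart.

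Tgi RNA was at 59.2 CPM in library S1, at 57.7 in S2 and at 62.2 in S3, a mean of 59.7 ± 2.28 CPM (SD, n = 3). yki RNA was at 34.1 CPM in library S1, at 35.4 in S2 and at 38.9 in S3, a mean of 36.1 ± 2.48 CPM (SD, n = 3). Neither differed between libraries by more than 1.14-fold. The ratio of Tgi to yki reads was 1.74, 1.63 and 1.60 in the same order. In each library the read levels of the 4 genes fell in the order nerfin-1, sd, Tgi and yki, from highest to lowest.

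**Figure D3:**
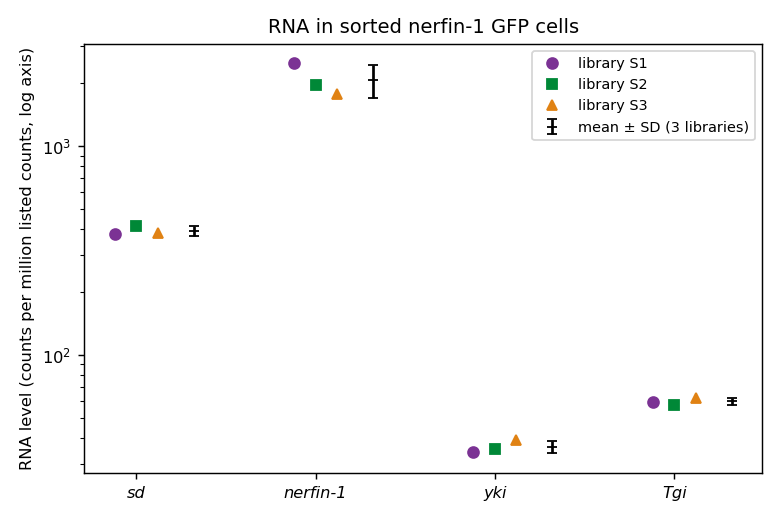
RNA level in CPM (log axis) of the 4 listed genes in libraries S1, S2 and S3, with the mean and SD of the 3 to the right of each set. nerfin-1 is highest, from 1773 to 2486 CPM, with S1 above the others, and yki is lowest, from 34.1 to 38.9 CPM.

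This order is one of reads and not of transcripts, because transcript lengths were not available here. A bound can be given for nerfin-1 alone. Its transcript cannot be longer than the 3208 bp that the gene spans, so its level was at least 645 CPM per kb of transcript. To reach that level, sd transcripts would have to be 608 bp long or shorter, those of Tgi 92.5 bp and those of yki 56.0 bp. The order of sd, Tgi and yki per length could not be set. lncRNA:CR44384 and CG8509 lie inside sd, were not listed themselves, and could share reads with it if counting ignored strand, a setting the sources used here do not state. Whether reads of the GFP reporter could count as nerfin-1 could not be told from the labels.

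The smaller differences depended on how libraries were scaled. With edgeR's TMM factors sd was lowest in S3 (369) and not in S1 (391), and Tgi was highest in S1 (61.4) and not in S3 (59.6). nerfin-1 remained highest in S1, at 2580 against 1964 in S2 and 1699 in S3. The median gene lay at -0.08 in S1 on the log2 scale with total counts and at -0.0032 with TMM.

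Of the neuroblast markers, ase was listed, at 31.6 CPM in S1 against 58.2 in S2 and 52.6 in S3. dpn, mira, wor, grh and klu were not listed. The summed neuronal markers stood at 7521, 7611 and 7228 CPM in S1, S2 and S3, and the glial marker nrv2 at 121.8, 131.2 and 135.2. The part of the lower ase level in the nerfin-1 result was not tested. Glut1, the neighbour that shares a peak with nerfin-1, was at 663 CPM in library S1, at 581 in S2 and at 544 in S3. It was highest in S1, as were 15.8% of listed genes with total counts and 36.7% with TMM factors. These shares count the order of libraries and not the size of the difference, which was not ranked for Glut1. The other listed neighbours varied little, with the clathrin heavy chain gene Chc at 857 ± 33.7, Gpat4 at 131 ± 3.89, Abp1 at 102 ± 1.79 and Spt20 at 168 ± 8.24 CPM (SD, n = 3).

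**Figure D4:**
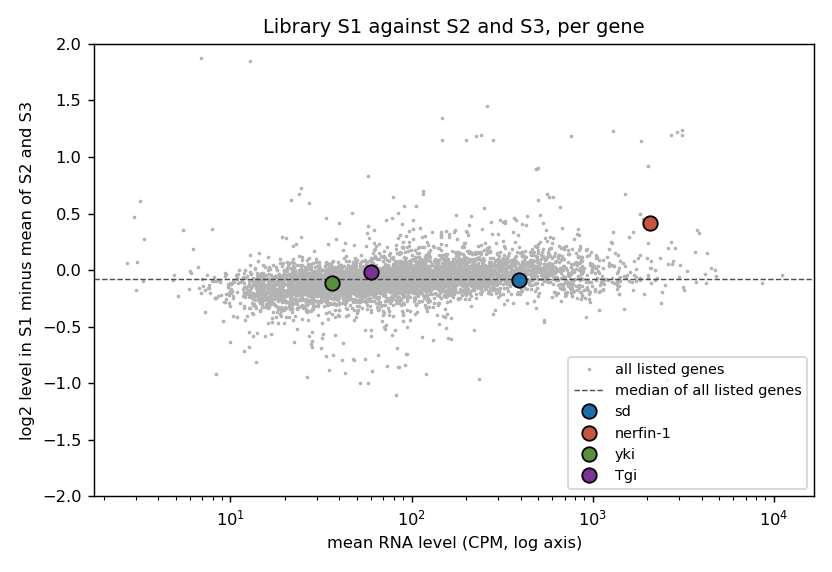
Log2 level in library S1 minus the mean of S2 and S3, against the mean level in CPM (log axis), for all 5135 listed genes (grey) and the 4 listed genes described here. nerfin-1 lies at 0.42, and sd, yki and Tgi lie near the median of all genes, which is -0.08 (dashed line).

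Genes most like sd and nerfin-1 were sought among 4937 other listed protein-coding genes. The measure was the distance over 4 scaled values, namely the numbers of named Sd, named Nerfin-1 and nearby ATAC peaks and the RNA level. The 3 smallest distances were taken for each. Distances far below the median and like values of these measures therefore follow from the choice. The nearest to sd were CG42748, CG5151 and ChAT, the acetylcholine synthesis enzyme, at distances of 0.617, 0.861 and 1.03 against a median of 4.10. Each had 2 Sd peaks and 1 Nerfin-1 peak like sd, with 11, 7 and 9 ATAC peaks. Their levels of 198, 178 and 123 CPM were below that of sd. The nearest to nerfin-1 were arm, the fly beta-catenin, RpL4, a ribosomal protein, and eEF2, a translation factor. Their distances were 0.0976, 0.149 and 0.174 against a median of 3.75, and each had 1 Sd, 1 Nerfin-1 and 3 ATAC peaks. Their levels were 1837, 1734 and 2499 CPM. The choice rests on the lists' naming of peaks. By the distance of 1 kb, sd had 3 Sd and 2 Nerfin-1 peaks, and nerfin-1 had 2 of each.

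Genes that act with or through these 5 were then counted by the names in the DamID lists. Of all protein-coding genes 20.9% were named in both, 7.04% in the Sd list alone, 4.35% in the Nerfin-1 list alone and 67.7% in neither. The groups were not matched to this background for gene length or RNA listing. The share named in both was 43.9% in the decile of longest genes and 36.3% among listed genes. The counts are therefore descriptions. The kinases and scaffolds that control Yki were named in both lists at 5 of 11 genes. These were wts, ex, kibra, 14-3-3epsilon and 14-3-3zeta, the last pair being proteins that hold phosphorylated Yki in the cytoplasm. mats, a cofactor of Wts, was in the Nerfin-1 list alone. hpo, sav, Mer, Rassf and jub were in neither. The RNA table listed 7 of the 11, such as wts at 105 ± 1.47 CPM, mats at 87.2 ± 2.79 CPM and hpo at 115 ± 3.00 CPM (SD, n = 3). For hpo and Mer, peaks of both kinds lay within 1 kb though the lists name other genes, and by that distance the count was 7 of 11. Rassf had a Nerfin-1 peak alone within 1 kb.

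Proteins that work with Yki or Sd were named in both lists at 7 of 11 genes. Among them were mask, a Yki cofactor, at 1073 ± 72.0 CPM, and mor, a subunit of the Brahma chromatin remodeller, at 688 ± 0.454 CPM (SD, n = 3). tsh was also in both lists, as was Mad, the transducer of BMP signals, at 87.3 ± 5.55 CPM (SD, n = 3). Wbp2, Ncoa6, hth and brm were in neither, and 8 of the 11 were listed as expressed. For hth and brm, peaks of both kinds lay within 1 kb though neither list names these genes. By that distance the count was 9 of 11, and Ncoa6 had a Sd peak alone.

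Known targets of Yki and Sd were named in both lists at 8 of 11 genes. The RNA table listed 2 of the 11, and another 2, ds and wg, could not be looked up in it because their identifiers are newer than any in the files. Over all protein-coding genes 35.5% were listed. The listed genes were Diap1, the caspase inhibitor, at 731 ± 52.7 CPM and E2f1, a cell cycle factor, at 434 ± 7.35 CPM (SD, n = 3). ex, kibra and CycE had both peaks and were not listed. Mer, ds and wg were named in neither list, though ds and wg could not be looked up there for the same reason. No DamID peak lay within 1 kb of ds or wg. Some of these genes are in more than 1 of the groups.

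Among corepressors, gro, CtBP, Sin3A and Smr were named in both lists and HDAC1 in neither, and all 5 were listed as expressed, from 481 CPM for HDAC1 to 995 CPM for CtBP. Among relatives of nerfin-1 and keepers of neuronal fate, pros, brat and elav were in both lists and nerfin-2, lola and Mi-2 in neither, a count of 3 of 6. The identifier of lola is newer than any in the files, so lola could not be looked up in the lists. Its place among those in neither is therefore undetermined. By the distance of 1 kb, lola and Mi-2 had both kinds of peak, and nerfin-2, a relative of nerfin-1, had none and was not listed as expressed.

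**Figure D5:**
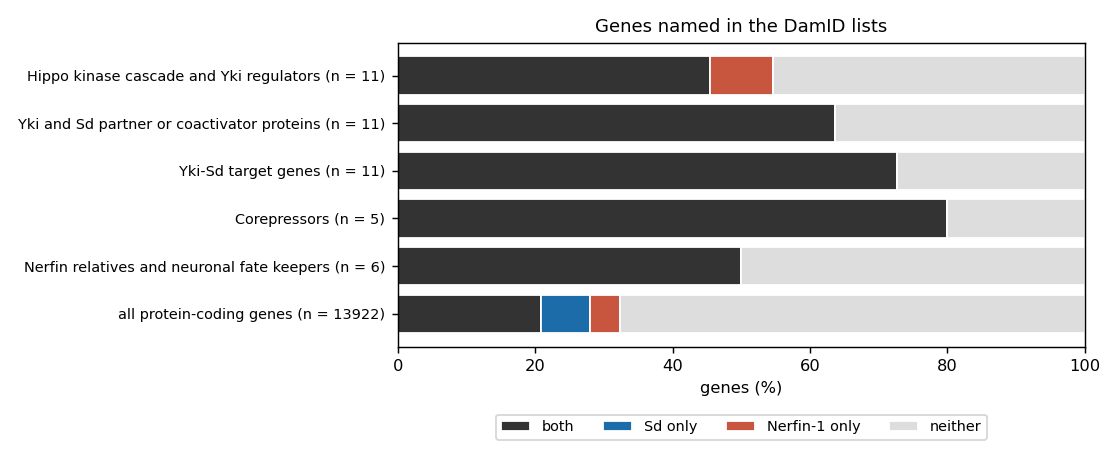
Share of genes (%) named in both DamID lists, in 1 of them or in neither, for 5 groups of related genes and for all protein-coding genes. Both lists name 5 of 11, 7 of 11, 8 of 11, 4 of 5 and 3 of 6 genes of the groups from top to bottom, and 20.9% of all genes. The groups are not matched to all genes for gene length or RNA listing. lola, ds and wg are drawn as neither but have newer identifiers that could not be looked up.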

How the data were processed

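Sources were the authors' deposited peak lists (positions only; the DamID lists add gene identifiers) and their deposited raw read counts for genes they kept as expressed. The submitters' processing notes name dm6 as the build and, without roles or settings, Bowtie2, MACS2, bedtools, Subread, featureCounts and edgeR as tools. Gene positions came from a RefSeq table of the same assembly. The files hold 8165 gene identifiers, of which 167 had no symbol, and 298 protein-coding genes have newer identifiers. Sequences were not analysed here.

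The members and gene groups were chosen with earlier results of these data known. A DamID peak belonged to a gene when the list names it, an ATAC peak when it overlapped the gene or its flanks of 1 kb by at least 1 bp. Named genes were the members, their neighbours, the most alike genes, up to 4 of each kind per group and, beyond this rule, genes singled out in the text. The 3 RNA columns name no replicate and are called S1, S2 and S3; 0 columns were left unmapped. The spread is between pools and may be technical. Log2 values used a pseudocount of 1. Python 3.11.15 was used, with edgeR 4.0.16 and DESeq2 1.42.0 for alternative scalings; interval counting was tested on simulated data. The depth of DamID and ATAC samples is unknown.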

Additional observations from a re-analysis of the deposited data

How the results depend on the processing

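Of 83 values recomputed under alternatives, 68 stayed within 1.5-fold of the reported count, share or spread (for RNA levels, within 1 SD). The other 15 moved further. 0 reversed, but counts, shares, levels and spreads have no direction, so none could. With 3 libraries, leaving out 1 cannot move a mean by 1 SD, so those levels had to stay within it. With the longer 50% of peaks, 3 members had a Sd peak, 3 Sd peaks remained and 3 members (sd, nerfin-1 and Tgi) had both kinds. yki and vg lost their Sd peaks in this setting, and 13 ATAC peaks were left. With flanks of 5 kb the counts were 12 (Sd) and 11 (Nerfin-1), and by the distance of 1 kb 7 Sd peaks overlapped a Nerfin-1 peak, against 4. The background of genes named in both lists was 43.9% in the decile of longest genes, which holds sd, Tgi and vg. Tgi and vg lie at its lower edge, and the share was 36.5% in the decile below. By the distance of 1 kb, 5 of 6 neuronal fate genes had both peaks. The coefficient of variation of yki, 6.85%, was 2.81% with TMM and 2.58% with DESeq2 factors. Leaving out 1 library at a time gave levels of 381 to 400.4 CPM for sd, 1863 to 2219 for nerfin-1, 34.8 to 37.2 for yki and 58.5 to 60.7 for Tgi. The coefficients of variation ranged over 1.44 to 6.95% for sd, 6.78 to 23.7% for nerfin-1, 2.66 to 9.28% for yki and 1.79 to 5.28% for Tgi. The lowest value came without S2 for sd, without S1 for nerfin-1 and without S3 for yki and Tgi. Leaving out newer identifiers, added after seeing the data, gave a background of 21.4%. Levels per transcript length and sequence features were not run for want of exons and sequence. No paired analysis was possible because each assay has a single group of values and the RNA columns carry no replicate number.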

Other observations

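Further DamID peaks lay between 1 and 5 kb from the 5 genes and belong to their neighbours by the lists' names. The Nerfin-1 list held a peak of 3879 bp, named for mat, at 1859 bp from nerfin-1, which overlapped 2 ATAC peaks. Below the lower end of vg, peaks of 2023 bp (Sd) and 1871 bp (Nerfin-1) were found at 3178 bp from the gene. Both were named for AspRS and Nmda1 and overlapped 1 ATAC peak. Near yki, peaks of 941 bp (Sd) and 788 bp (Nerfin-1) named for RpL39 overlapped no ATAC peak. Near sd, a Sd peak of 720 bp named for CG15602 lay 4200 bp away, also with 0 ATAC peaks.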
